A study of Mus musculus with 69 samples.

Results

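The comparison set the lungs of mice given the highest dose of an unmodified titanium dioxide nanoparticle against the lungs of vehicle mice on the next day. Its members were 10 of the 69 arrays of the series, which are the 5 arrays labelled unmodified NRCWE 001, day 1, 162 µg and the 5 labelled negative control, day 1. All were female C57BL/6 mice that reached the laboratory at 5-7 weeks of age and rested for 1-3 weeks before a single instillation into the trachea. The exposed mice received 162 µg of NRCWE-001 in water with 2% serum, and the vehicle mice received the same liquid without particles, although their label says H2O. A small frozen piece of lung taken 24 h later gave the RNA of 1 mouse per array. On each array the lung RNA was hybridised with a common mouse reference RNA, and every value below is a log2 ratio of lung to reference, so a level can be compared between arrays for 1 gene but not between genes. The question addressed was which genes and pathways of the lung differed 1 day after this dose.

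Particles that land in the alveoli are taken up mainly by resident macrophages. Macrophages and epithelial cells then release interleukin-1, interleukin-6 and chemokines, which call neutrophils and monocytes into the air spaces. The same cytokines switch on acute-phase genes, among them the serum amyloid A proteins and the orosomucoids, through the transcription factors C/EBP, STAT3 and NF-kB. The acute-phase response is best known from liver, but lung tissue also makes several of these proteins itself.

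Of 15 marker genes of lung cell types, 13 were measured. All 13, among them the surfactant gene Sftpc, the alveolar type 1 gene Ager, the airway gene Scgb1a1 and the endothelial gene Cldn5, were well above background on all 10 arrays. None of them passed the test between the groups (limma, adjusted p of 0.677 or above). Between 62.9% and 72.8% of the spots of an array were well above background in the lung channel, and 0 spots were saturated. Exposed replicate 4 was the least like the others, with correlations over genes of 0.912 to 0.958 with the other 9 arrays.

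One exposed mouse stood apart. Over the 80 genes called higher in the comparison, the median distance of exposed replicate 5 from the vehicle mean was only 0.08 on the log2 scale, against 0.75, 0.68, 0.99 and 1.07 in exposed replicates 1 to 4. Over the 30 genes called lower it was -0.18, against -0.70, -0.54, -0.70 and -1.03. In 72 of the 110 called genes this mouse lay inside the range of the vehicle arrays, and in 4 it lay past that range on the opposite side. It was kept in all tests unless stated, and values without it are given beside the results. Because this array was recognised by the outcome itself, a fit without it describes the other 4 mice and is not a stronger test.

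Of 17628 genes tested, 110 (0.624%) passed the threshold of an adjusted p of 0.05 in limma. Of these, 80 (0.454%) rose and 30 (0.17%) fell. A change of more than 2-fold was seen in 25 of the risen and 4 of the fallen genes. The rises reached a log2 change of 6.17 and the falls -1.86. The median log2 change of all genes was 0.00. In a piece of whole lung, more cells of a type and more RNA per cell cannot be told apart. All 5 exposed arrays lay beyond all 5 vehicle arrays in 19 of the risen and 15 of the fallen genes. Among all genes tested the same was true of 1.7% upwards and 1.5% downwards. With exposed replicate 5 set aside, the other 4 exposed arrays lay above all vehicle arrays in 79 of the 80 risen genes and below them in 29 of the 30 fallen genes. The shares over all genes for the same 4 arrays were 6.37% and 3.97%. The called genes were picked by a test on these same arrays, and replicate 5 was recognised by these genes. The separation therefore follows in part from the choice and is no independent support for the calls.

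**Figure D1:**
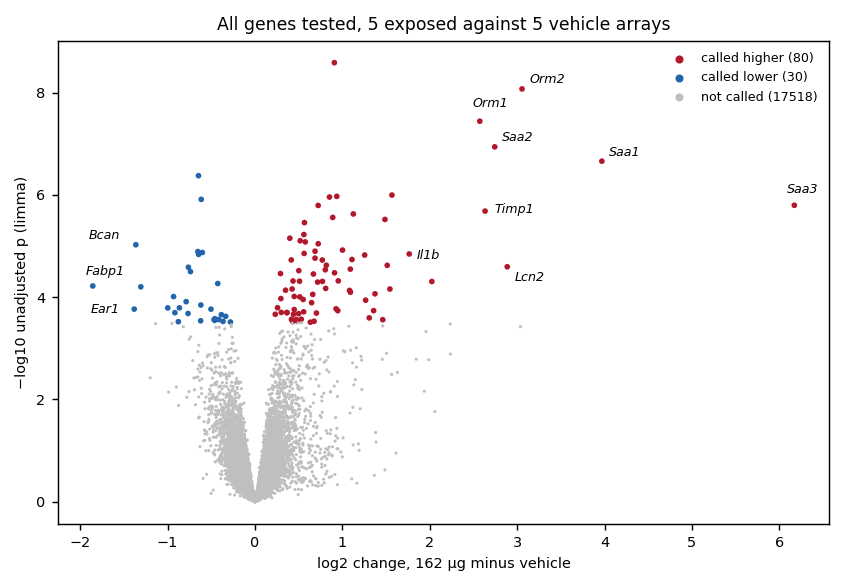
Log2 change (162 µg minus vehicle, horizontal) against -log10 of the unadjusted limma p (vertical) for the 17628 genes tested, each point 1 gene, with the 80 called higher in red and the 30 called lower in blue. Saa3 lies farthest to the right at 6.17, and the largest rises are larger than the largest fall, which is that of Fabp1 at -1.86.

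Slides and single arrays changed how many genes passed. Of the 18 slides, 3 held an exposed and a vehicle array each, and with slide as a fixed block 725 genes passed (498 higher, 2.83%, and 227 lower, 1.29%), all 110 among them. Without exposed replicate 5 the counts were 244 higher (1.38%) and 87 lower (0.494%), again with all 110. These shares over all genes are the background for the counts of each list given below for the same 2 fits. Leaving out exposed replicate 1, 2, 3 or 4 left 41, 72, 29 or 18 genes, and leaving out vehicle replicate 1, 2, 3, 4 or 5 left 58, 56, 60, 53 or 67. Calls held in all 10 of these fits for 18 of the 110 genes (16 higher and 2 lower). When the spread was estimated from the 10 arrays alone, 12 genes passed, 6 of them higher, and 4 of the 110 were among them, namely Nfkbiz, Ifitm2, Serpina3c and Cyp1a1. Of the 47 called genes picked by the naming rule, leaving out exposed replicate 1, 2, 3 or 4 ended the call of 26, 12, 33 or 36, and leaving out vehicle replicate 1, 2, 3, 4 or 5 that of 15, 14, 16, 18 or 11. The median SD of the risen genes was 0.42 among the exposed arrays with replicate 5 and 0.21 without it, against 0.13 among the vehicle arrays and 0.26 within the 14 groups of the series. The p-values of the main fit rest on the spread between mice within these 14 groups, each mouse with 1 array. Differences between slides are part of that spread, and the correlation of arrays that share a slide was 0.48.

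The serum amyloid A genes, whose acute-phase products circulate bound to lipoproteins, gave the 2 largest rises. Saa3 had log2 ratios of 4.25, 3.61, 4.23, 5.02 and -3.74 in exposed replicates 1 to 5 and of -3.19, -3.54, -3.22, -3.95 and -3.59 in vehicle replicates 1 to 5. Exposed replicates 1 to 4 were thus more than 6 log2 units above every vehicle mouse, and exposed replicate 5 was inside the vehicle range. The log2 change was 6.17 (SE 1.16), or 72.1-fold, with an adjusted p of 0.00237 in limma, and it was 7.78 without replicate 5. On the 3 slides with both groups the difference between the 2 arrays of the slide was 7.44, 7.15 and 7.45.

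Saa1 gave 4.11, 3.61, 4.10, 4.89 and -0.86 in the exposed and -0.85, -0.76, -0.67, -0.83 and -0.88 in the vehicle mice. Its change was 3.97 (SE 0.68, adjusted p in limma 0.000777), a rise of 15.7-fold, and 4.98 without replicate 5. Saa2, next to Saa1 on the chromosome and close to it in sequence, gave 3.38, 3.16, 3.54, 3.65 and -0.01 against -0.13, 0.10, 0.06, -0.09 and 0.06. Its change of 2.74 had an adjusted p of 0.000509 in limma, and again only replicate 5 overlapped the vehicle mice. A probe may catch RNA of both genes, so the 2 values may not be separate. The 2 probes of Saa1 differed in size, at 3.03 and 4.91. The probe at 3.03 was well above background on 1 of 5 vehicle arrays, so the size of the Saa1 change is not firm.

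The orosomucoids, plasma glycoproteins that bind small molecules, rose with them. Orm2 was at 4.07, 3.39, 3.98, 4.14 and 0.36 in the exposed and 0.15, 0.23, -0.08, 0.06 and 0.30 in the vehicle mice. All 5 exposed arrays were above all vehicle arrays, exposed replicate 5 by the least. On no vehicle array was the Orm2 probe well above background, so its fitted change of 3.06 (SE 0.45, adjusted p in limma 7.5e-05) has no firm size. The mean Orm2 signal of the lung channel was at least 7.72-fold higher after exposure. Orm1, well above background in 1 of 5 vehicle mice, gave 3.26, 2.30, 3.17, 3.50 and -0.09 against -0.09, -0.14, -0.11, -0.19 and -0.20, a change of 2.57 with an adjusted p of 0.000214 in limma. Orm3, not among the largest rises, had the smallest p of all genes, with a change of 0.91 (SE 0.13, adjusted p 4.6e-05 in limma). The 3 genes are near copies, and their probes may share signal.

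Other secreted acute-phase genes were high in the same 4 mice. Lcn2, which encodes a lipocalin that withholds iron from bacteria, was at 4.85, 4.41, 4.81, 4.67 and 0.91 in the exposed and 1.20, 1.13, 1.06, 1.08 and 0.76 in the vehicle mice. Its change was 2.89 (SE 0.63, adjusted p in limma 0.0118), and the call was lost without exposed replicate 1, 3 or 4. Hpx, encoding the haem-binding hemopexin, changed by 1.57 (adjusted p in limma 0.00217), with 1.61, 1.89, 1.95, 1.69 and 0.27 against -0.16, 0.01, -0.26, -0.31 and 0.30. Cp, which encodes the copper-carrying ferroxidase ceruloplasmin, had 1.19, 1.23, 0.88, 1.70 and -0.63 against -0.34, -0.75, -0.90, -0.96 and -0.24, a change of 1.51. Serpina3n, a serine protease inhibitor, had 3.39, 3.25, 3.59, 3.67 and 1.81 against 1.82, 1.75, 1.74, 1.12 and 1.85, a change of 1.49. In each of these 4 genes exposed replicates 1 to 4 were above every vehicle mouse. The adjusted p in limma was 0.0114 for Cp and 0.00335 for Serpina3n. Leaving out exposed replicate 1 or 4 ended the call of Cp.

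Of the acute-phase list, 25 of 26 members were tested, 12 rose, none fell, and the median log2 change was 0.91. The members that rose and are not described above were C3, the central complement component (1.08, adjusted p in limma 0.0218), and Saa4 (0.55, 0.0289). Of the 2 probes of Saa4, 1 was well above background on 1 of 5 vehicle arrays and the other on 0, so the size of its change is not firm, and its call held only without exposed replicate 5 in the fits that left out an array. The other 13 did not pass, among them Ltf, the iron-binding lactoferrin (1.38, adjusted p in limma 0.649), and the plasma genes Fgb (-0.06), Crp (-0.04) and Apcs (0.03). Over its members the mean distance from the vehicle mice was 1.78, 1.43, 1.68, 1.96 and 0.02 in exposed replicates 1 to 5, and between -0.05 and 0.11 in the vehicle mice. With slide as a block 16 members rose, and without replicate 5 it was 15.

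**Figure D2:**
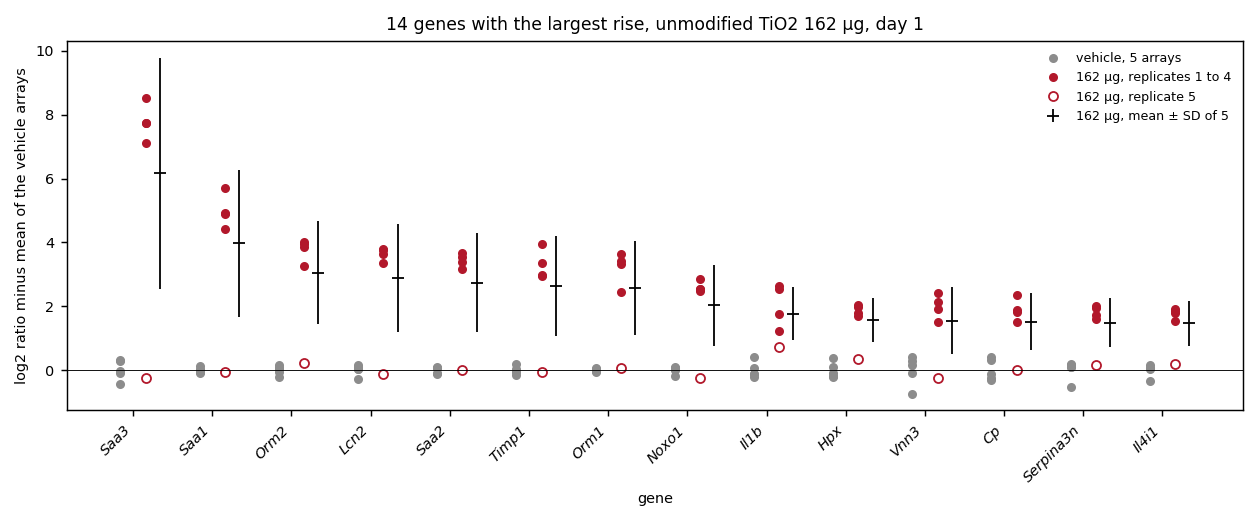
Log2 ratio minus the mean of the vehicle arrays (vertical) for the 14 genes with the largest rise (horizontal), with vehicle arrays in grey, exposed replicates 1 to 4 as filled red points, exposed replicate 5 as an open red circle, and the mean and SD of the 5 exposed arrays in black. The 4 filled points lie above the grey points in every gene, and the open circle lies among the grey points in most, just above them in Orm1, Orm2, Il1b and Il4i1 and below them in Noxo1.

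The windows before the start of the risen acute-phase genes were searched for the letters to which the factors named above are known to bind. Promoters from RefSeq (GRCm38.p6) were matched for 66 of the 80 risen genes, 22 of the 30 fallen genes and 13992 of the genes tested, at the first start listed, and the 250 bases before it were read. The C/EBP motif TTGCNNAA, on either strand, was in 14 of 66 risen genes (21.2%), 4 of 22 fallen genes (18.2%) and 8.41% of all genes tested. It was in 9 of the 11 risen acute-phase genes with a window and in 5 of the 55 other risen genes with one. Of the tested acute-phase genes with a window, risen or not, it was in 12 of 20. None of its 15 matches in the risen genes overlapped a match of another motif searched. Shown are the windows of the risen acute-phase genes with the largest changes that hold a match, each 5′ to 3′ on the strand of the gene, with the C/EBP letters in capitals.
Saa3 (chr7:46715677-46715926, minus strand): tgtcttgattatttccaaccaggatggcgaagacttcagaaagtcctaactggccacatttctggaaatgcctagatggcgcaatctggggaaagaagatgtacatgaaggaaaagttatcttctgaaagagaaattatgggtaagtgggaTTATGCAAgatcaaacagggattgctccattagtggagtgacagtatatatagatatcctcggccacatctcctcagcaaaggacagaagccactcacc
Saa1 (chr7:46742981-46743230, minus strand): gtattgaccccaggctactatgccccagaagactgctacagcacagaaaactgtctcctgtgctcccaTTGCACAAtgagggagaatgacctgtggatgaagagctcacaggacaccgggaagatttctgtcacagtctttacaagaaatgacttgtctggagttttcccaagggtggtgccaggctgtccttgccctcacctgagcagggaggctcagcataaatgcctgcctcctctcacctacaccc
Saa2 (chr7:46751583-46751832, plus strand): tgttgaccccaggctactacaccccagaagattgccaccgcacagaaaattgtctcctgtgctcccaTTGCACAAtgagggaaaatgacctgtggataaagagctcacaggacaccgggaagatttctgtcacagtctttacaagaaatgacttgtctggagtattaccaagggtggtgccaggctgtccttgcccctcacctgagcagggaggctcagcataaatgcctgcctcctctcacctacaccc
Orm2 (chr4:63362199-63362448, plus strand): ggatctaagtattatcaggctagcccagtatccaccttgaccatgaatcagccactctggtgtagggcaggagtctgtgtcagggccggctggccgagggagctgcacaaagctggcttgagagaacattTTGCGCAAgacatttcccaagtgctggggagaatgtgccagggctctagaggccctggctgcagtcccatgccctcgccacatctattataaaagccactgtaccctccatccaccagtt
Lcn2 (chr2:32387740-32387989, minus strand): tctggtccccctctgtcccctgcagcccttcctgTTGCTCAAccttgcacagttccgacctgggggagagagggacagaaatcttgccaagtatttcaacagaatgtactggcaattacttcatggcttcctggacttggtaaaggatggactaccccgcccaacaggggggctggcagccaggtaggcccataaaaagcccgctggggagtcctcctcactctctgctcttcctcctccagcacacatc
The match began 99 bases before the start in Saa3 (on the opposite strand), 182 in Saa1, 183 in Saa2, 120 in Orm2 and 216 in Lcn2. Saa1 and Saa2 carried it within nearly the same surrounding letters.

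Of the other motifs, the kappaB motif was in 10 risen genes (15.2%), in 0 of the 22 fallen genes and in 8.19% of all genes. The STAT motif TTCNNNGAA was in 10 (15.2%) of the risen, 2 (9.09%) of the fallen and 6.58% of all genes. The AP-1 motif TGANTCA was in 7 (10.6%), 0 and 5.55%. The antioxidant response element TGACNNNGC was in 5 (7.58%), 4 (18.2%) and 11.5%, and the heat shock element GAANNTTC in 3 (4.55%), 1 (4.55%) and 5.57%. These shares are descriptions of letters and were not tested. The window of Socs3, the feedback inhibitor of interleukin-6 signalling, is shown because it is a classical target of STAT3, with the STAT letters in capitals and the match 154 bases before the start.
Socs3 (chr11:117969367-117969616, minus strand): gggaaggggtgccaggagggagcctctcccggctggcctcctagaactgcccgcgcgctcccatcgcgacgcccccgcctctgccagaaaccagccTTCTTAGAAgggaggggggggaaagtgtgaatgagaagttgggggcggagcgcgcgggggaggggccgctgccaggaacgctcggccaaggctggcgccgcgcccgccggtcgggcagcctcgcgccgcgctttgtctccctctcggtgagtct
Socs3 rose by 0.67 (SE 0.15, adjusted p in limma 0.0136), with -0.18, -0.40, 0.25, 0.48 and -0.31 in the exposed and -0.62, -0.69, -0.62, -0.80 and -0.77 in the vehicle mice, and all 5 exposed mice were above the vehicle range.

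Interleukin-1 genes were among the risen genes in which no mouse overlapped. Il1b, the secreted cytokine made by activated macrophages and neutrophils, was at 3.15, 2.62, 4.03, 3.93 and 2.12 in the exposed mice and 1.29, 1.27, 1.46, 1.82 and 1.20 in the vehicle mice. Exposed replicate 5 was the lowest exposed mouse, yet above every vehicle mouse. The change was 1.76 (SE 0.37, adjusted p in limma 0.00857), a 3.4-fold rise, and was lost as a call without exposed replicate 3 or 4. Il1r2, a decoy receptor that binds interleukin-1 without signalling, was at 1.59, 1.15, 1.77, 2.29 and 0.38 against 0.26, 0.26, 0.12, 0.23 and 0.05. Its change was 1.25 with an adjusted p of 0.00857 in limma, and its 2 probes gave 1.74 and 0.77. The probe at 0.77 was well above background on 0 of 5 vehicle arrays, so the size of the change is not firm. Of the 18 tested genes in the list of the interleukin-1 family and inflammasome these 2 rose, none fell, and the median was 0.11. Mefv, which is not in this list, also rose, by 1.09. Il33, an alarmin of barrier cells, had a change of 0.57 (adjusted p in limma 0.556).

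Chemokines that attract neutrophils had large values but few calls. Cxcl5, an epithelial ligand of the receptor Cxcr2, was at 0.39, 1.40, 0.10, -0.11 and -3.85 in the exposed and -3.18, -3.55, -3.55, -3.70 and -3.29 in the vehicle mice. Exposed replicates 1 to 4 were more than 3 log2 units above the vehicle mice and replicate 5 was below all of them. The probe was not well above background on any vehicle array, and the mean signal of the lung channel was at least 7.24-fold higher after exposure. The adjusted p of the change (3.04, SE 0.80) was 0.0551 in limma. It was 0.00822 with slide as a block and 0.00162 without replicate 5. Cxcl3 rose (0.95, adjusted p in limma 0.0401), with 0.93, 0.84, 1.14, 1.33 and -0.11 against -0.08, -0.10, -0.25, 0.03 and -0.18. Its probe was not well above background in any vehicle mouse, so the rise of the mean signal in the lung channel was at least 1.75-fold. The call of Cxcl3 was lost in 9 of the 10 fits that left out an array, all but that without exposed replicate 5. Cxcl1 had a change of 1.12 (adjusted p in limma 0.415). Cxcr2, their receptor on neutrophils, rose by 0.82 (SE 0.18, adjusted p in limma 0.0114). Of the 9 genes of this list 2 rose, none fell, and the median was 0.43. 4 rose with slide as a block.

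Genes known from neutrophils gave a mixed picture. Of 19 tested, 3 rose, which were Cxcr2, the growth factor receptor Csf3r (0.81, adjusted p in limma 0.0212) and the amplifying receptor Trem1 (0.50, adjusted p in limma 0.0128). None fell, and the median was 0.36. With slide as a block 8 rose, and without exposed replicate 5 it was 5. Cd177, which is not in this list, also rose, by 1.27. S100a8, an abundant calcium-binding protein of neutrophils, was at 4.23, 2.75, 3.65, 3.26 and 2.79 against 2.84, 2.00, 2.43, 2.91 and 1.97, with a change of 0.91 and an adjusted p of 0.256 in limma. The granule genes Mpo, Elane, Ngp and Camp, made in the marrow, had changes of 0.01, 0.01, -0.05 and -0.05, none of them past the threshold. The mean distance of the list from the vehicle mice was 0.63, 0.09, 0.44, 0.35 and 0.04 in exposed replicates 1 to 5, and vehicle mice ranged from -0.23 to 0.21.

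None of the 17 CC chemokines, which recruit monocytes, eosinophils and lymphocytes, passed the test, although their median log2 change was 0.82, beside 0.00 for all genes, and 15 were above 0. Ccl7 was at -1.20, -1.32, -0.56, 0.50 and -3.74 in the exposed and -3.08, -3.51, -3.43, -3.85 and -3.60 in the vehicle mice. Ccl2 was at -2.38, -2.51, -1.54, -0.87 and -4.48 against -4.14, -4.37, -4.08, -4.58 and -4.39. Both are ligands of Ccr2 on monocytes, and in both replicates 1 to 4 were more than 1.5 log2 units above all vehicle mice. The adjusted p in limma was 0.0509 for Ccl7 (2.23, SE 0.59) and 0.0636 for Ccl2 (1.96, SE 0.53). Ccl4, which activated macrophages secrete, had a change of 1.63 (adjusted p in limma 0.184). With slide as a block 6 of the 17 passed upwards and 1 downwards, and without replicate 5 the counts were 7 and 1. The ligands of Cxcr3 and the lymphoid CXC chemokines, 6 genes, also had no call, with a median of 0.60. Cxcl10, which attracts T cells, had a change of 1.94 (adjusted p in limma 0.289), Cxcl13 of 0.94 (0.726) and Cxcl9 of 0.62 (0.992). 2 of the 6 rose with slide as a block.

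The list of interleukin-6 signalling and that of NF-kB held 1 call each, and that of cytokines none. Among 13 genes of interleukin-6 and STAT3 signalling Socs3 alone rose, none fell, and the median was 0.38. 3 rose with slide as a block. Il6 itself was at -1.06, -0.85, 0.19, 1.00 and -1.45 against -1.48, -1.75, -1.67, -1.59 and -1.46, above background in 4 exposed and 0 vehicle mice. All 5 exposed values were above the vehicle values, replicate 5 by very little, and the adjusted p of its change (1.16) was 0.101 in limma. In the lung channel the mean Il6 signal of the exposed arrays was at least 2.07-fold that of the vehicle arrays. By log2 ratio exposed replicates 3 and 4 were the highest. Cebpd had a change of 0.53 (adjusted p in limma 0.864). Of 14 cytokines and colony-stimulating factors none passed, with a median of 0.02, and Csf2, a growth factor of alveolar macrophages, had 1.01 (adjusted p in limma 0.109) and Csf1 0.33 (0.172). With slide as a block 3 of the 14 rose, which were Il6, Csf2 and Csf1, with adjusted p of 0.0195, 0.0115 and 0.0239 in limma.

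Of 17 NF-kB regulators and subunits Nfkbiz alone rose, none fell, and the median was 0.32. Nfkbiz, an inducible nuclear cofactor of NF-kB, was at -0.61, -0.43, -0.41, -0.27 and -0.86 against -1.59, -1.22, -1.57, -1.55 and -1.65. No values overlapped, and replicate 5 was closer to the other exposed mice here than in the amyloid genes. The change was 1.00 (SE 0.21, adjusted p in limma 0.00857), and was past the threshold also with the 10 arrays alone. Nfkb2 had 0.55 (adjusted p in limma 0.618) and Nfkbie 0.50 (0.483). 5 of the 17 rose and 1 fell with slide as a block.

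Receptors of myeloid cells followed. Clec4d, a C-type lectin for microbial glycolipids, was at -0.62, -1.52, -0.49, -0.67 and -2.35 against -2.40, -2.39, -2.67, -2.34 and -2.71, a change of 1.37 (adjusted p in limma 0.0246). Cd14, the coreceptor for endotoxin, was at -0.19, -0.27, -0.29, 0.25 and -2.07 against -1.63, -1.85, -1.85, -2.02 and -1.75. Replicates 1 to 4 were above all vehicle mice in both, and for Cd14 replicate 5 was below them. The change of Cd14 was 1.31 (adjusted p in limma 0.0479), a call held only without exposed replicate 5 among the 10 fits that left out an array. Clec4d kept its call in 3 of these 10 fits. Of the 19 tested genes of this list the 2 rose, none fell, the median was 0.28, and Clec4e had 0.81 (adjusted p in limma 0.134). 4 rose with slide as a block.

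Also among the 14 largest rises were Noxo1, Vnn3 and Il4i1. Noxo1 encodes an organiser subunit of a superoxide-producing oxidase and was at 2.44, 2.42, 2.74, 2.37 and -0.36 against -0.03, -0.11, -0.02, -0.07 and -0.28, a change of 2.02 (SE 0.46, adjusted p in limma 0.0172). Vnn3, of the pantetheine-cleaving vanin family, was at 3.85, 3.64, 4.14, 3.23 and 1.48 against 1.99, 0.98, 2.13, 1.87 and 1.63, a change of 1.54 (SE 0.36, adjusted p in limma 0.0212). Il4i1, an amino acid oxidase secreted by myeloid cells, was at 2.60, 2.23, 2.48, 2.52 and 0.88 against 0.85, 0.35, 0.71, 0.75 and 0.74, a change of 1.46 (SE 0.38, adjusted p in limma 0.0484). Exposed replicates 1 to 4 were above every vehicle mouse in all 3 genes, and replicate 5 was below them for Noxo1, among them for Vnn3 and just above them for Il4i1. Leaving out any of exposed replicates 1 to 4 ended the call of all 3 genes, and Il4i1 kept its call only without exposed replicate 5.

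Timp1, the secreted inhibitor of matrix metalloproteinases, was at 0.35, 0.33, 0.75, 1.31 and -2.69 in the exposed and -2.42, -2.78, -2.60, -2.67 and -2.64 in the vehicle mice. Exposed replicates 1 to 4 were more than 2 log2 units above all vehicle mice, and replicate 5 was among them. The change was 2.63 (SE 0.50, adjusted p in limma 0.00283), a 6.2-fold rise, and its 2 probes gave 2.04 and 3.22. Of 24 genes of proteases, inhibitors and wound matrix, 3 rose, none fell, and the median was 0.22. The other 2 were the stromelysin Mmp3 (1.09, adjusted p in limma 0.0125) and the proteoglycan-cleaving Adamts9 (0.36, adjusted p in limma 0.0415). The 2 probes of Adamts9 gave 0.12 and 0.60. The probe at 0.12 was well above background on 2 of 5 vehicle and 3 of 5 exposed arrays, so the size of the Adamts9 change is not firm. Spp1, the matrix cytokine osteopontin, had 0.92 (adjusted p in limma 0.689). 8 of the 24 rose with slide as a block. None of 23 collagen and fibrosis genes passed, and their median was 0.06, while 3 rose with slide as a block.

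Genes of the unfolded protein response, among them chaperones of the endoplasmic reticulum that fold secreted proteins, were above 0 throughout. Of 20 tested, 5 rose, none fell, and all 20 were above 0, with a median of 0.44. Over all genes 0.454% rose. Sdf2l1 was at -0.52, -0.70, -0.04, -0.12 and -1.61 in the exposed and -1.44, -1.70, -1.60, -2.04 and -1.76 in the vehicle mice, a change of 1.11 (adjusted p in limma 0.00951). Hspa5, the main chaperone of this compartment, was at -0.51, -0.26, 0.11, 0.05 and -0.87 against -0.93, -0.84, -1.23, -1.05 and -1.04, a change of 0.72 (SE 0.14, adjusted p in limma 0.00237). In both, replicates 1 to 4 were above every vehicle mouse. The others were Manf (0.77), Creld2 (0.56) and Dnajb11 (0.50), with adjusted p of 0.0172, 0.00857 and 0.0418 in limma. In the 10 fits that left out an array, Dnajb11 kept its call only without exposed replicate 5, and Manf lost its call in 3. 11 of the 20 rose with slide as a block. Ddit3, which marks the pro-death arm, had a change of 0.17, and none of 14 heat shock chaperones passed (median 0.22), while 1 rose with slide as a block.

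In the list of Nrf2 targets and metallothioneins and that of genes that make or remove superoxide, 3 genes rose. Hmox1, the haem-degrading oxygenase, was at -0.88, -0.63, -0.24, -0.55 and -1.53 against -1.41, -1.75, -1.53, -1.74 and -1.84, a change of 0.89 (SE 0.17, adjusted p in limma 0.00326). Fth1, the heavy chain of ferritin, changed by 0.69 (adjusted p in limma 0.00951). These were 2 of the 19 tested targets of Nrf2 and metallothioneins, with none lower and a median of 0.19. 4 rose and 1 fell with slide as a block. Mt2, a metal-binding protein, was at -1.98, -2.22, -1.28, -0.41 and -3.40 against -3.15, -3.59, -3.09, -3.55 and -3.22, with a change of 1.46 and an adjusted p of 0.0548 in limma. Of the 16 tested members of the superoxide list, the mitochondrial dismutase Sod2 alone rose (0.77, adjusted p in limma 0.00951), with 1.42, 1.35, 1.53, 1.60 and 0.18 against 0.49, 0.40, 0.47, 0.37 and 0.48. Noxo1, described above with a rise of 2.02, is not in this list. Replicate 5 was below all vehicle mice for Sod2. Cyba had 0.45 (adjusted p in limma 0.597) and catalase, Cat, -0.42 (0.44). 2 of the 16 rose and 1 fell with slide as a block.

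**Figure D3:**
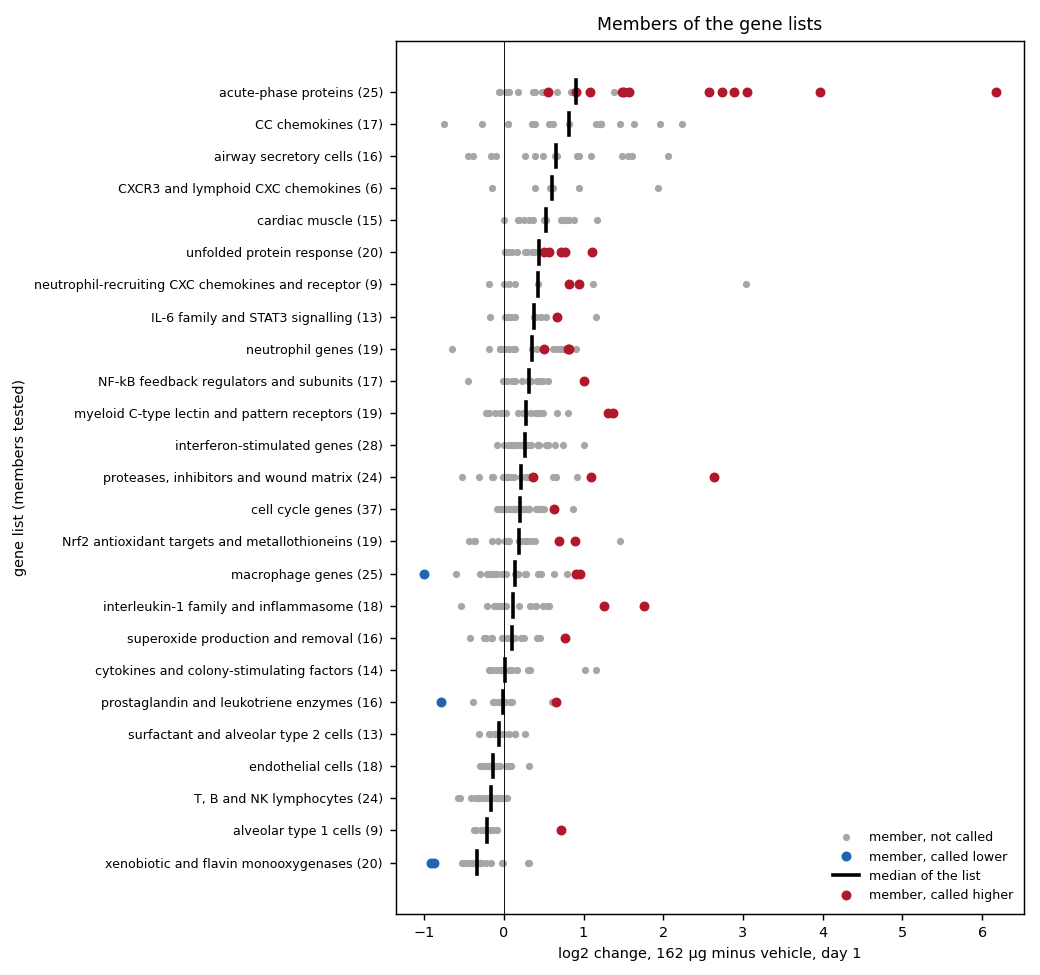
Log2 change (162 µg minus vehicle, horizontal) of every tested member of 25 gene lists (vertical, number of members in brackets), with members called higher in red, called lower in blue and not called in grey, and a black bar at the median of each list. The acute-phase list has the highest median, 0.91, with 12 of 25 members in red, the CC chemokines follow at 0.82 with none, and the xenobiotic list is lowest at -0.34.

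Among the 8 largest falls were genes of lipid handling, 2 ribonucleases, a lectin of macrophages and eosinophils, and 2 enzymes of xenobiotic metabolism. Fabp1, a binding protein for fatty acids, was at 2.92, 3.39, 3.23, 1.22 and 4.88 in the exposed and 4.62, 4.81, 5.54, 5.35 and 4.61 in the vehicle mice. Exposed replicates 1 to 4 were below every vehicle mouse, replicate 4 farthest, and replicate 5 was among them. It fell by 1.86 on the log2 scale (SE 0.43, adjusted p in limma 0.0198), or 3.62-fold. Abcg1, which exports cholesterol from macrophages, was at 1.44, 2.25, 2.08, 1.01 and 2.40 against 2.93, 2.74, 2.80, 2.89 and 2.47. It fell by 0.93 (adjusted p in limma 0.0265) with all exposed mice below all vehicle mice, and lost its call without exposed replicate 1, 3 or 4 or without vehicle replicate 1, 2, 3 or 4.

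Ear1 and Rnase2a are eosinophil-associated ribonucleases, near copies of each other whose probes may share signal. Ear1 was at 3.09, 3.65, 3.34, 2.97 and 4.86 against 5.05, 5.02, 5.34, 5.17 and 4.25 and fell by 1.38 (SE 0.34, adjusted p in limma 0.039). Rnase2a was at 4.16, 5.06, 4.59, 3.64 and 6.00 against 5.82, 5.78, 6.27, 6.35 and 5.77 and fell by 1.31 (SE 0.30, adjusted p in limma 0.0202). Siglecf, a lectin on the surface of alveolar macrophages and eosinophils, was at 1.22, 1.53, 1.45, 1.02 and 2.22 against 2.38, 2.74, 2.84, 2.71 and 1.75. In all 3 exposed replicates 1 to 4 were below every vehicle mouse and replicate 5 was not. Siglecf fell by 1.00 (SE 0.25, adjusted p in limma 0.0383).

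Bcan, the proteoglycan brevican, fell by 1.36 (SE 0.28, adjusted p in limma 0.00727), with -0.01, 0.54, 0.22, -0.06 and 1.42 against 1.42, 2.14, 2.12, 1.83 and 1.41. None of the 8 largest falls kept its call in all 10 fits that left out an array. Bcan lost it only without exposed replicate 4. Fabp1 and Rnase2a lost it without exposed replicate 1, 3 or 4 and without vehicle replicate 3 or 4. Ear1 and Siglecf kept it only without exposed replicate 5 or vehicle replicate 5. Without exposed replicate 5 the change was -2.30 for Fabp1, -1.70 for Ear1, -1.64 for Rnase2a and -1.18 for Siglecf.

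Among 25 macrophage genes Siglecf fell and the membrane proteins Tmem176a (0.91, adjusted p in limma 0.0135) and Tmem176b (0.95, adjusted p in limma 0.0172) rose, with a median of 0.14. Tmem176b was at 1.74, 1.66, 1.66, 1.58 and 0.64 against 0.48, 0.64, 0.41, 0.59 and 0.40, with no overlap. The macrophage genes Adgre1 (-0.21), Csf1r (-0.17) and Marco (0.18) did not pass. The mean distance of the list from the vehicle mice was between 0.01 and 0.26 in the exposed mice and between -0.14 and 0.05 in the vehicle mice.

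Of 20 genes of xenobiotic metabolism, 2 fell and none rose, and 18 were below 0, with a median of -0.34. Cyp1a1, the oxidase induced through the aryl hydrocarbon receptor, was at 0.81, 1.21, 0.37, 0.89 and 0.99 in the exposed and 1.50, 1.97, 1.63, 1.90 and 1.86 in the vehicle mice. Here replicate 5 lay within the range of the other exposed mice. Cyp1a1 fell by 0.92 (SE 0.23, adjusted p in limma 0.0415), and this held with the 10 arrays alone. Ces1f, a carboxylesterase, was at 1.83, 1.48, 1.12, 1.44 and 1.88 against 2.66, 2.12, 2.58, 2.17 and 2.60 and fell by 0.88 (adjusted p in limma 0.0495), a call held only without exposed replicate 5 in the 10 fits that left out an array and lost when the ratios were computed from the scanner intensities. Leaving out vehicle replicate 1, 2, 3, 4 or 5 or exposed replicate 1, 3 or 4 ended the call of Cyp1a1. 4 of the 20 genes fell with slide as a block.

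**Figure D4:**
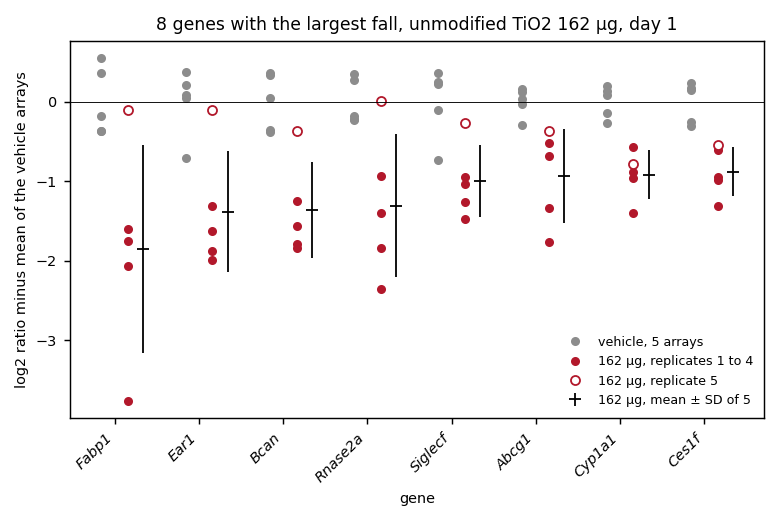
Log2 ratio minus the mean of the vehicle arrays (vertical) for the 8 genes with the largest fall (horizontal), with vehicle arrays in grey, exposed replicates 1 to 4 as filled red points, exposed replicate 5 as an open red circle, and the mean and SD of the 5 exposed arrays in black. The filled points lie below the grey points throughout, while the open circle lies among the grey points for Fabp1, Ear1, Bcan, Rnase2a and Siglecf and below them for Abcg1, Cyp1a1 and Ces1f.

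Of the enzymes of prostaglandin and leukotriene synthesis, 1 rose and 1 fell. Ptges, the inducible prostaglandin E synthase, rose by 0.66 (adjusted p in limma 0.0248), and Ltc4s, the leukotriene C4 synthase, fell by 0.79 (adjusted p in limma 0.031). Ltc4s was at 1.54, 1.91, 1.67, 0.99 and 2.61 against 2.67, 2.55, 2.67, 2.46 and 2.32. In the 10 fits that left out an array, Ptges lost its call in 6 and Ltc4s in 7. Ptges and Ltc4s were the only calls among the 16 tested, whose median was -0.01, and Ptgs1 had 0.60 (adjusted p in limma 0.161). 2 rose and 1 fell with slide as a block. Among 37 cell cycle genes the replication helicase subunit Mcm2 alone rose (0.63, adjusted p in limma 0.0497), a call held only without exposed replicate 5 in the fits that left out an array. The median of that list was 0.20, 33 of its genes were above 0, and 5 rose with slide as a block and 6 without exposed replicate 5. Uhrf1 had 0.86 (adjusted p in limma 0.291) and Mcm3 0.50 (0.749).

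Among the lists of epithelial and endothelial cells, only that of alveolar type 1 cells held a call. Of 9 alveolar type 1 genes Pdpn, which macrophages and stroma also make, rose (0.72, adjusted p in limma 0.00727) while the other 8 were below 0 and none fell, with a median of -0.21. Igfbp2 had -0.38 and Cav1 -0.35, with adjusted p of 0.89 and 0.686 in limma. No gene passed among 13 alveolar type 2 (median -0.06), 13 ciliated (-0.08), 18 endothelial (-0.13), 24 lymphocyte (-0.15), 8 erythroid (0.02) and 12 adipocyte genes (0.02). None passed among 21 immediate early (median 0.25), 15 leukocyte adhesion (0.09), 17 circadian clock (-0.15), 14 glucocorticoid-responsive (-0.06), 21 sterol and fatty acid synthesis (0.18) and 13 alternative macrophage activation genes (0.19). Among 19 complement genes C3 alone rose (median 0.02). None passed among the 28 tested genes of the interferon-stimulated list either, of which 26 were above 0, with a median of 0.26, nor among 21 targets of p53 (median -0.03). Ifitm1 (0.70) and Ifitm2 (0.57) rose and are not in the interferon-stimulated list. With slide as a block, 4 sterol and fatty acid synthesis, 2 adhesion, 1 immediate early and 1 alternative macrophage activation genes rose, 2 adipocyte and 1 clock genes fell, and 2 complement genes rose and 1 fell.

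The airway secretory list had a median of 0.65 over 16 genes with no call, and 2 rose with slide as a block. Slc26a4, an anion exchanger, had 2.06 (adjusted p in limma 0.451), the mucin Muc5b 1.61 (0.867) and Pigr, which carries IgA across epithelium, 1.56 (0.189). Slc26a4 was at 5.09, 5.05, 5.37, 5.51 and 1.44 in the exposed and 3.86, 2.26, 2.43, 1.92 and 1.71 in the vehicle mice. Pigr was at 4.61, 4.18, 4.25, 4.42 and 1.29 against 2.80, 1.76, 2.41, 1.62 and 2.35. In both, exposed replicates 1 to 4 were above every vehicle mouse and replicate 5 was below all of them. For Muc5b only exposed replicates 1 and 4 were above every vehicle mouse. The mean distance of this list was 1.78, 0.25, 0.25, 1.70 and -0.54 in exposed replicates 1 to 5, and vehicle replicate 5 stood at 0.83 while the other vehicle mice were between -0.41 and -0.05.

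Heart muscle genes, which in the mouse are also active in the muscle sleeve of the pulmonary veins, were high in 2 exposed mice and 1 vehicle mouse. Over 15 genes the mean distance from the vehicle mean was 2.62 in exposed replicate 1, 2.16 in exposed replicate 4 and 2.25 in vehicle replicate 5, and -0.76 to -0.45 in the other 7 mice. Sln was at 6.17, -0.11, -0.03, 5.95 and 1.09 in the exposed and 0.45, 0.00, 0.34, 0.16 and 6.28 in the vehicle mice, with a change of 1.16 (adjusted p in limma 1.00). Csrp3 had 0.88 and Nppa 0.82 (adjusted p in limma 1.00 and 1.00). The list had 0 calls and a median of 0.53. Myh7, a myosin of heart and slow muscle that is not in this list, fell by 0.87 (SE 0.21, adjusted p in limma 0.0383), with 3.82, 4.13, 3.88, 3.55 and 4.55 in the exposed and 5.13, 4.65, 4.83, 4.99 and 4.67 in the vehicle mice. All exposed mice were below all vehicle mice, and the call held only without exposed replicate 5 in the 10 fits that left out an array. In exposed replicates 2 and 3 the acute-phase list stood at 1.43 and 1.68 and the heart list at -0.72 and -0.76. The same 3 mice were the highest for the airway secretory list, and the part of the sampled piece of lung in these values was not tested.

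From the gene sets that the study derived from public data on lung disease models, 5 were examined and the others were not used here. Of these 5, the chemokine set (bicluster 3) had 17 tested genes, all above 0, with a median of 0.62 and 1 call, Socs3. The set around Saa3 (bicluster 1) had 2 calls upwards among 17 (median 0.32), bicluster 7 none among 19 (0.22), bicluster 8 had 1 upwards among 15 (0.26), and bicluster 10 had 2 downwards among 16 (-0.33), namely Cyp1a1 and Pcolce2. The slide block gave 2, 5, 2 and 4 calls upwards in biclusters 1, 3, 7 and 8 and 4 downwards in bicluster 10. Over all genes 0.454% rose and 0.17% fell, and with slide as a block 2.83% rose and 1.29% fell.

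The lower doses of the same particle had smaller values for the acute-phase genes, and no gene passed against the vehicle at either (limma, 931 genes at 18 µg and 879 at 54 µg with an unadjusted p under 0.05). Saa3 had a mean change from the vehicle of 1.53 at 18 µg, 3.38 at 54 µg and 6.17 at 162 µg. Lcn2 had 0.33, 1.89 and 2.89, and Orm2 0.05, 1.40 and 3.06. In all these the same vehicle mice were the baseline, so the 3 values are not independent. At 54 µg as well the mice divided, with Saa3 at 2.11, 1.48, 3.75, -3.78 and -4.16, the last pair inside or below the vehicle range.

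Tested directly, 162 µg differed from 18 µg in 200 genes (1.13%; 139 higher at 162 µg, 61 lower). The same 5 exposed arrays entered this test and the one that picked the genes named, so the values below are no independent support for them. All 14 largest rises were higher than at 18 µg, Saa3 by 4.64 (SE 1.16) with an adjusted p of 0.0283 in limma and Orm2 by 3.01 (SE 0.45) with 0.000194. Of the 8 largest falls Fabp1, Bcan, Siglecf and Ces1f passed against 18 µg and Ear1, Rnase2a, Abcg1 and Cyp1a1 did not (adjusted p in limma 0.0905, 0.0532, 0.0975 and 0.853). Leaving out single mice moved the 200 to between 63, without exposed replicate 3, and 447, without exposed replicate 5.

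Against 54 µg 25 genes differed (0.142%), and only 2 were higher at 162 µg. These were Orm3, by 0.66 (SE 0.13), and the ribosomal gene Rpl36al, by 0.32 (SE 0.06), with adjusted p of 0.0106 and 0.0106 in limma. Saa3 differed by 2.79 (SE 1.16) with an adjusted p of 0.641 in limma, which is not evidence of equal levels at the 2 doses. The count ranged from 3, without exposed replicate 4, to 90, without exposed replicate 5, of which 40 were then higher.

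NRCWE-002, the positively charged form of the particle, was instilled at the same dose. No gene passed the test between the 2 particles (limma, 0 at the adjusted threshold and 269 at an unadjusted p under 0.05). The difference, charged minus unmodified, was 0.32 (95% interval -1.99 to 2.63) for Saa3, -0.56 (95% interval -1.47 to 0.35) for Orm2, 0.30 (95% interval -0.96 to 1.56) for Lcn2, 0.01 (95% interval -0.73 to 0.76) for Il1b and 0.74 (95% interval -0.12 to 1.60) for Fabp1. The interval of Saa3 spans more than 4 log2 units. Beside the vehicle, the charged particle gave 6.49 for Saa3 and 2.75 for Timp1, where the unmodified one gave 6.17 and 2.63. It also had 1 mouse with a low Saa3, at -0.65 against 3.34 to 4.30 in the other 4.

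On day 28 the same dose of the unmodified particle had its own vehicle group of 4 mice. Saa3 was then at 0.28, -3.27, -3.58, 0.98 and 1.95 in the 5 exposed mice and between -4.01 and -3.68 in the vehicle mice. Its change of 3.13 did not pass, nor did that of any gene risen or fallen on day 1, and 9 genes passed in all (0.0511%). The effect on day 28 minus that on day 1 was -3.04 (95% interval -6.41 to 0.33) for Saa3, -2.70 (95% interval -4.67 to -0.72) for Saa1, -2.20 (95% interval -3.53 to -0.88) for Orm2 and -0.42 (95% interval -1.51 to 0.66) for Il1b. The adjusted p in limma was 1.00, 1.00, 0.788 and 1.00. The intervals are not adjusted for the number of genes. In 0 genes did the effects of the 2 days differ at the adjusted threshold (limma, 679 at an unadjusted p under 0.05).

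**Figure D5:**
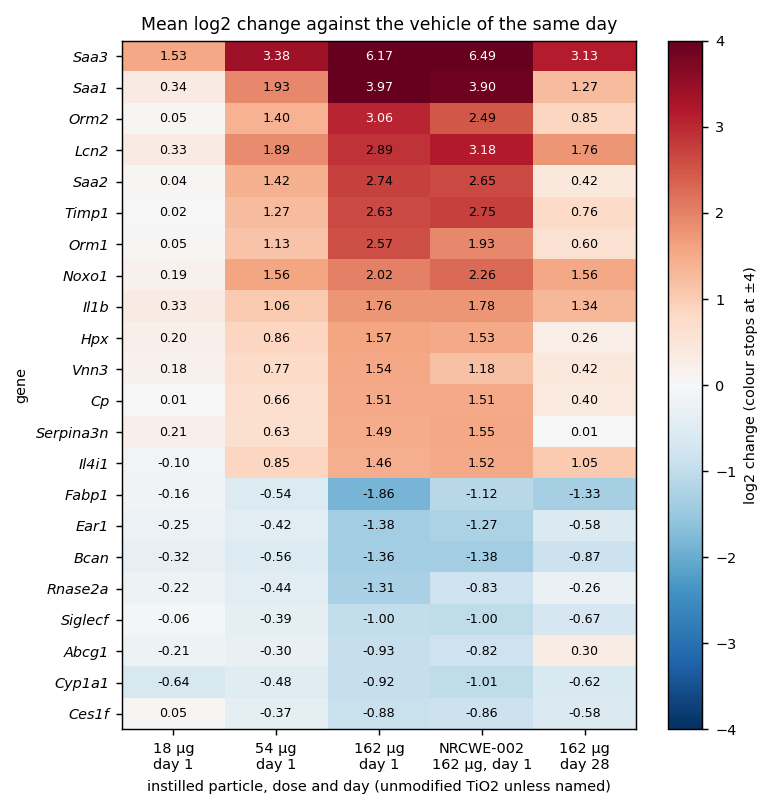
Mean log2 change against the vehicle of the same day (printed in each cell and shown by colour, which stops at 4 and -4) for the 14 largest rises and 8 largest falls of the day 1 comparison at 162 µg (rows) in 5 exposed groups (columns), of which the first 4 share the vehicle arrays. Saa3 goes from 1.53 at 18 µg to 6.17 at 162 µg and stands at 3.13 on day 28.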

How the data were processed

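The authors deposited LOWESS-normalized log2 ratios, with lung RNA in Cy5 and reference RNA in Cy3. Over spots of the 10 arrays they correlated at 0.991 or above with ratios computed here from the deposited scanner intensities (Agilent Feature Extraction 11.0.1.1). Dyes were not swapped. Probes well above background in the lung channel on at least 4 of 69 arrays were kept, named through a RefSeq table (27479 of 41174 probes matched, 66.7%), and reduced to the median per symbol (17628 genes). Groups came from titles. limma 3.58.1 in R 4.3.3 fitted 14 group means over all 69 arrays, Benjamini-Hochberg adjusted p below 0.05 was called, and the code was tested on simulated data. Fold changes are powers of 2. Alternatives used normexp (offset 50, with spots over 10 MADs from the median background left out of its fit, a choice made after seeing the data) and loess on the intensities, other filters and scalings, blocks for slide and scan day, and leaving out arrays. Arrays carry no counts, so their number limits precision. Named genes were the 14 largest rises, 8 largest falls, the 3 members with the largest change of each list described with genes, members of counts of 5 or fewer, and some chosen after their values were seen (Orm3, C3, Saa4, Ltf, Fgb, Crp, Apcs, Mpo, Elane, Ngp, Camp, Ddit3, Adgre1, Csf1r, Marco, Pcolce2, Ifitm2, Serpina3c, Rpl36al, Myh7). A gene that this rule picks is not reported here. Members and lists were chosen with earlier results of these data known. Cd177, Mefv and Ifitm1 were also named after their values were seen.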

Additional observations from a re-analysis of the deposited data

Results flagged for a closer look

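In the 80 named genes, the highest or lowest array of each group of 5 was set against its neighbours, as its gap to the nearest array over the whole range of the group, with 0.71 as the limit. Chance passes that limit in about 1 of 20 groups, and 31 of 160 groups passed it. In 21 of the 31, exposed replicate 5 lay low. The ratio was 0.838 for Saa3, 0.777 for Saa1, 0.803 for Orm2, 0.889 for Lcn2, 0.864 for Saa2, 0.753 for Timp1, 0.88 for Noxo1, 0.795 for Hpx, 0.773 for Serpina3n, 0.786 for Il4i1 and 0.711 for Cxcl5. It was 0.887 for Slc26a4, 0.871 for Pigr, 0.769 for Cd14, 0.853 for Csf2, 0.869 for Nfkb2, 0.885 for Nfkbie, 0.856 for Tmem176b, 0.826 for Sod2, 0.748 for Pdpn and 0.761 for Tmem176a. These 21 groups are not separate signs, because they are the same mouse. The array of this mouse had 68.1% of spots well above background in the lung channel, within the 62.9% to 72.8% of the 10 arrays. Its median reference intensity, 43, was the lowest of the 10, beside 51 to 59 in the vehicle arrays. Its median lung intensity, 125.5, was the lowest exposed one and within the 116 to 139 of the vehicle arrays. Its slide held no vehicle array, but did hold 54 µg replicate 5, with Saa3 at -4.16. The part of the slide or array in its values was not tested.

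Among vehicle mice, replicate 5 lay high in 6 genes, at 0.929 for Sln, 0.913 for Csrp3, 0.944 for Nppa, 0.794 for Muc5b, 0.822 for Cxcl13 and 0.713 for Il33. Replicate 4 lay low for Serpina3n (0.859) and Ptgs1 (0.749), and replicate 2 lay low for Il4i1 (0.73) and high for Nfkbiz (0.759).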

How the results depend on the processing

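No paired analysis was possible because the replicate numbers follow only the order of the samples and tie no exposed mouse to a vehicle mouse. Arrays that share a slide were compared instead, with slide as a block. The 110 genes called became 725 with slide as a fixed block, 618 with slide as a random block, 718 with scan day as a block and 663 with the 3 shared slides alone (60.3% higher, against 72.7%), and 66 with the processed signals of the scanner software (83.3% higher) and 12 with the 10 arrays alone (50.0% higher). In the other settings it was 90 to 111. Leaving out 1 array gave 18 to 331. The 25 genes against 54 µg became 290 and 291 with slide as a fixed and as a random block and 3 to 90 without 1 array, and the 200 against 18 µg became 1449, 1227 and 63 to 447. Against day 28 the 0 became 3 with the random block and 0 to 4 without 1 array, and between particles it was 0 throughout. All 47 named genes called kept the call with slide as a fixed or random block and with scan day, 44 kept it from scanner intensities with normexp, 30 with processed signals and 2 with the 10 arrays alone, and of 33 not called, 16 passed with slide as a fixed block. Csf3r turned to -0.032 with processed signals, and the prostaglandin list, at -0.01, turned to 0.0012 with slide as a block and 0.0205 with normexp. The cause of these moves was not tested. Signal limits Orm2, Cxcl5, Cxcl3 and Il6, not well above background on any of the 5 vehicle arrays, and Orm1 and Saa4, which were so on 1. It also limits 1 of the 2 probes of Saa1, so on 1 vehicle array, and 1 of the 2 of Il1r2, so on 0. The same holds for 1 of the 2 probes of Adamts9, so on 2 vehicle arrays.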
